A study of Sus scrofa with 13 samples.

Results

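Complement is a cascade of plasma and tissue proteins that marks microbes, dying cells and debris for removal. In the classical route the recognition molecule C1q, built from the products of C1QA, C1QB and C1QC, binds a target and activates the proteases C1r and C1s, which SERPING1, the C1 inhibitor, holds in check. In the alternative route factor D, the product of CFD and also known as adipsin, cleaves factor B. Both routes meet at C3, and C7 belongs to the membrane attack complex that forms at the end of the cascade. C1q transcripts come largely from macrophages, CFD is known as a gene of fat cells, and C1r, C1s and the C1 inhibitor are also made by connective tissue cells.

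Transcript levels of 9 complement genes (C1QA, C1QB, C1QC, C1R, C1S, C3, C7, CFD and SERPING1) were examined in the longissimus lumborum, the loin muscle, of 13 female pigs aged 6 months. The set was picked partly on the rise of CFD in Hampshire pigs with a high loin weight. For that reason the values of all members in the Hampshire loin weight comparison are given as a description, without a test. Of the 9 symbols, 8 matched a gene in both count tables, out of 25322 genes in all; C1S matched no row and was not analysed here. The Hampshire pigs comprised 3 animals with a high and 3 with a low weight of loin, and the Pietrain pigs comprised 4 with a high and 3 with a low weight of loin. Hampshire and Pietrain are both sire breeds with a high meat content, and the pigs were sampled at slaughter with no treatment. Each pig gave 1 library, prepared from total RNA for mRNA sequencing. It was sequenced in 4 technical repetitions whose counts came as 1 column per pig.

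Total counts per pig lay between 11312755 and 20134612. All 15 pairs of pigs within a group differed by more than sampling noise, with a chi-square per degree of freedom of at least 23.7, so each pig was used as a replicate. The skeletal muscle markers found (6 of 8, among them ACTA1, CKM and DES) summed to between 95200 and 251000 CPM (counts per 1e6 counts of the library). The breeds were deposited in separate tables, and breed cannot be told apart from any difference in handling between them. Levels below are CPM after TMM scaling over the 13 pigs, a scaling between libraries that rests on most genes not differing. In whole muscle, more cells of a type and more RNA per cell cannot be told apart.

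C1QA (ENSSSCG00000003524), C1QC (ENSSSCG00000003525) and C1QB (ENSSSCG00000003526) lie next to each other on chromosome 6 of Sscrofa10.2, at 74609912 to 74612993, 74616233 to 74621248 and 74625259 to 74629862, so that the whole cluster spans 19951 bases. CFD (ENSSSCG00000013418) lies on chromosome 2 at 77485872 to 77487847, and SERPING1 (ENSSSCG00000013181) lies on the same chromosome at 12957679 to 12972235. C1R (ENSSSCG00000000675) was placed on the scaffold GL894246.2 at 7851 to 18701. These are positions of whole genes, introns included. C3 is ENSSSCG00000013551 and C7 is ENSSSCG00000016859, both used here without a position.

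CFD was the member with the clearest separation between the Hampshire groups. Its level was 163, 263 and 184 CPM in the Hampshire pigs with high loin weight (pigs 8, 9 and 10) and 60.1, 62.1 and 52.8 CPM in those with low loin weight (pigs 1, 2 and 3). The groups did not overlap, and the 3 low pigs lay close to one another while high pig 9 stood above the others. The log2 fold change of high over low was 1.80 (SE 0.21, 3.48-fold), a value that chose the set and is given without a test. In Pietrain pigs CFD was at 37.8, 52.9, 39.0 and 82.2 CPM with high loin weight (pigs 1, 2, 6 and 7) and at 60.4, 23.4 and 32.1 CPM with low loin weight (pigs 3, 5 and 8). These groups overlapped, and the low Hampshire pigs lay within the range of the Pietrain pigs. The group means therefore ran from 203 CPM ± 52.5 (SD, n = 3) in Hampshire high to 58.3 ± 4.91 (n = 3) in Hampshire low, 53.0 ± 20.7 (n = 4) in Pietrain high and 38.7 ± 19.4 (n = 3) in Pietrain low. The last 3 of these groups overlapped.

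SERPING1, which encodes the inhibitor of C1r and C1s, had the next largest Hampshire difference. It was at 151, 301 and 254 CPM in the high pigs and at 46.2, 95.8 and 92.1 CPM in the low pigs. The Hampshire groups did not overlap, with a log2 fold change of 1.59 (SE 0.33). The Pietrain high pigs held 56.6, 60.5, 72.8 and 55.6 CPM and the Pietrain low pigs 56.3, 43.3 and 44.0 CPM. Here the highest low pig lay just above the lowest high pig, and low Hampshire pig 1 lay among the Pietrain animals.

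C1R, one of the proteases inside the C1 complex, was at 71.0, 81.3 and 99.8 CPM in Hampshire high pigs and at 22.0, 39.9 and 42.7 CPM in Hampshire low pigs, a log2 fold change of 1.27 (SE 0.26). In Pietrain pigs it was at 22.7, 22.2, 29.8 and 28.0 CPM with high and at 21.2, 17.0 and 14.4 CPM with low loin weight. High and low pigs were separated in both breeds, although in Pietrain the nearest high and low pigs were about 1 CPM apart. C1R and SERPING1 are also in the study's own list of genes that changed in both breeds, which was drawn from these same pigs, so their direction here is not independent evidence.

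The 3 C1q chains, which join into the recognition molecule, had their highest group mean in Hampshire high pigs and their lowest in Pietrain low pigs. C1QA was at 42.0, 55.4 and 50.7 CPM in Hampshire high pigs, 9.55, 29.5 and 30.7 in Hampshire low pigs, 5.14, 15.7, 9.80 and 17.3 in Pietrain high pigs and 6.82, 3.09 and 7.73 in Pietrain low pigs. C1QC was at 64.6, 80.1 and 88.1 CPM in Hampshire high pigs, 16.7, 47.7 and 55.1 in Hampshire low pigs, 5.35, 16.2, 15.6 and 21.3 in Pietrain high pigs and 9.36, 5.62 and 8.74 in Pietrain low pigs. For both chains the Hampshire loin weight groups did not overlap, and Hampshire low pig 1 was the only Hampshire animal inside the Pietrain range. C1QB was at 12.1, 14.0 and 12.8 CPM in Hampshire high pigs, 5.82, 10.98 and 13.6 in Hampshire low pigs, 2.10, 2.03, 2.14 and 6.70 in Pietrain high pigs and 2.14, 0.79 and 2.22 in Pietrain low pigs. Its Hampshire groups overlapped, since low pig 3 was above 2 of the 3 high pigs. The Hampshire log2 fold changes were 1.09 (SE 0.37) for C1QA, 0.97 (SE 0.37) for C1QC and 0.36 (SE 0.28) for C1QB. With an offset for gene length, taken as the span of the whole gene with introns, they were 0.70, 0.64 and 0.02.

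C3, on which all routes of activation converge, was scarce in muscle, with 11 to 104 counts per pig. It was at 6.06, 5.18 and 5.24 CPM in Hampshire high pigs and at 0.73, 3.06 and 3.92 CPM in Hampshire low pigs, without overlap (log2 fold change 1.1, SE 0.48). Pietrain high pigs held 7.53, 1.75, 3.12 and 3.95 CPM and Pietrain low pigs 0.90, 3.09 and 4.64 CPM. Unlike the C1q chains, C3 covered much the same range in both breeds. C7 had 0 to 23 counts per pig and passed the filter on low counts in none of the comparisons. Its counts were 5, 4 and 18 in Hampshire high pigs, 5, 4 and 0 in Hampshire low pigs, 8, 8, 23 and 11 in Pietrain high pigs and 8, 3 and 5 in Pietrain low pigs, and no fold change is given for it at this depth.

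**Figure D1:**
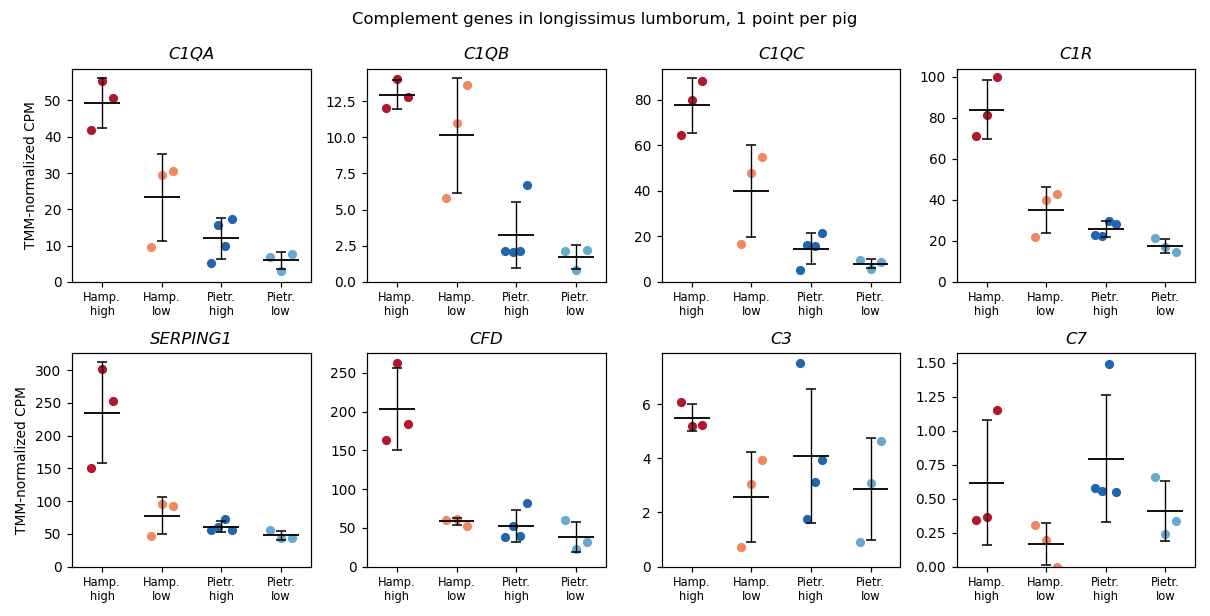
Level of each complement gene in TMM-normalized CPM (y axis, linear, from 0, a separate scale per gene) in the 4 groups of pigs (x axis). Each point is 1 pig, the horizontal line is the group mean and the error bar is the SD. CFD and SERPING1 are high in the 3 Hampshire high pigs, the C1q chains are higher in Hampshire than in Pietrain pigs apart from Hampshire low pig 1, and C3 shows no such step between breeds.

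Over the Hampshire comparison as a whole, 7 of the 9 members passed the filter and all 7 had a log2 fold change above 0, with a median of 1.1 beside 0.0289 over the 12228 genes tested. Without overlap between the groups and higher with high loin weight were 6 of the 7, against 22.4% of all genes. Changes were common in this comparison: 26.6% of all genes passed an adjusted p under 0.05 with a fold of at least 1.2, and 12% passed and were higher with high loin weight. Because this contrast chose the set, nothing is read from these counts. Hampshire low pig 1 had the lowest Hampshire value of C1QA, C1QB, C1QC, C1R, C3 and SERPING1 but not of CFD. Without it the log2 fold changes were 0.67 for C1QA, 0.55 for C1QC, 0.03 for C1QB, 0.98 for C1R, 0.61 for C3 and 1.28 for SERPING1, and 1.78 for CFD.

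Whether the same genes followed loin weight in the other breed was asked in the 7 Pietrain pigs, which had no part in the choice of CFD. None of the 7 members tested passed the threshold, every adjusted p being 0.939 in edgeR and 0.994 in DESeq2. Over all 12065 genes 0% were called by edgeR, while 398 genes (3.3%) had an unadjusted p under 0.05. DESeq2 called 1 gene. The paper, which also used DESeq2 within each breed, reported Pietrain genes at an adjusted p under 0.05, with C1R and SERPING1 among them. The result here therefore differs from the published one. The paper's table of muscle weights gives fewer Pietrain high pigs than the 4 used here. The cause of the difference was not tested. All 7 members lay above 0 on the log2 scale, with a median of 0.584 beside 0.0204 for all genes, of which 52.4% lay above 0. An unadjusted p under 0.05 in edgeR with a higher level in high pigs was found for 3 members (C1QA, C1QC and C1R), against 1.9% of all genes. C1R, whose value is the median of 0.584, is in the study's list drawn from these pigs. Its place in this count is therefore not independent evidence.

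For CFD the Pietrain log2 fold change was 0.48 (SE 0.37, 95% interval −0.34 to 1.31), an interval that holds 0. It depended on single animals, being 0.18 without high pig 7 and 1.00 without low pig 3. The value of C1R was 0.58 (SE 0.22, interval 0.10 to 1.06), and C1R was the only one of the 7 whose Pietrain groups did not overlap, against 2.08% of all genes. Its exact permutation test over the 7 pigs gave p = 0.0286 (two-sided), the smallest value that the 35 arrangements allow. SERPING1 had 0.39 (SE 0.19, interval −0.03 to 0.81, exact permutation p = 0.0571). Both C1R and SERPING1 are in the study's list from these pigs, so these values are not independent evidence.

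The C1q chains had Pietrain log2 fold changes of 1.06 (SE 0.45, interval 0.06 to 2.05) for C1QA, 0.92 (SE 0.41, interval 0.01 to 1.84) for C1QC and 0.96 (SE 0.57, interval −0.30 to 2.21) for C1QB. The exact permutation p-values were 0.2, 0.257 and 0.543, and the high pigs overlapped the low pigs for each chain. The C1QB value rested on high pig 7, the only Pietrain animal above 2.22 CPM, and was 0.29 without it. C3 had a log2 fold change of 0.53 (SE 0.57, interval −0.74 to 1.80), with the largest value in high pig 1, and was 0.10 without that pig. For C7 the exact permutation test on log2 CPM gave p = 0.286.

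**Figure D2:**
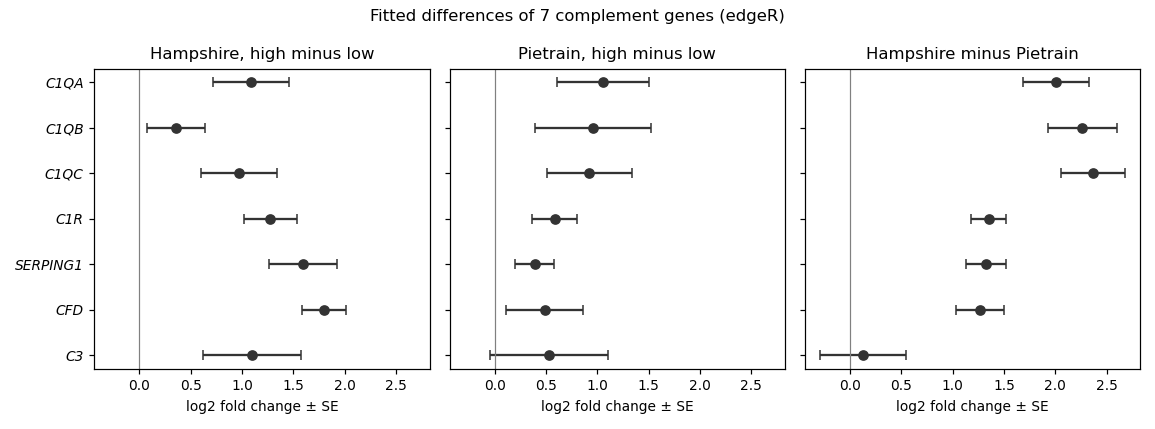
Fitted log2 fold change (x axis) of the 7 complement genes that passed the filter (y axis), with bars of 1 SE from edgeR, for high minus low loin weight in Hampshire, the same in Pietrain, and Hampshire minus Pietrain averaged over loin weight. The Hampshire panel holds the contrast that chose the set. The Pietrain values lie between 0.39 and 1.06, and C3 is the only gene near 0 in the breed panel, at 0.13.

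Between the breeds, averaged over the loin weight groups, the C1q chains had the largest differences of the members. This contrast shares its pigs with both comparisons above, and it holds the Hampshire high pigs in which CFD was picked, so CFD is given here as a description without a test. Of the 6 other members fitted, 5 passed the threshold in edgeR and all 5 were higher in Hampshire pigs, with C3 as the exception. The background was high: 52.3% of the 12831 genes passed and 25.4% were called higher in Hampshire. The median of the 7 members fitted, CFD included, was 1.35, beside −0.00401 over all genes, and is a description only.

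C1QC had a log2 difference of 2.37 (SE 0.31, 5.16-fold; edgeR adjusted p = 6.35e-05), C1QB 2.26 (SE 0.34, 4.80-fold; adjusted p = 0.000136) and C1QA 2.01 (SE 0.32, 4.02-fold; adjusted p = 0.000246). The chains thus stood roughly 4 to 5 times higher in Hampshire muscle. SERPING1 was 1.32 (SE 0.19; adjusted p = 0.000132) and C1R 1.35 (SE 0.17; adjusted p = 4.81e-05) higher on the log2 scale, both genes that the study had listed from these pigs. CFD was 1.27 higher (SE 0.24), a size near those of C1R and SERPING1. C3 differed by 0.13 (SE 0.42, interval −0.77 to 1.03; adjusted p = 0.813).

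In exact permutation tests that exchanged breed labels within each loin weight group, C1QA, C1QC and C1R gave p = 0.00143, the smallest value of the 700 arrangements. C1QB and SERPING1 gave an exact permutation p = 0.00286, C3 0.653 and C7 0.164. None of the 7 members had breeds that did not overlap over all pigs, against 5.11% of genes that were higher in Hampshire without overlap. For C1QA, C1QB, C1QC, C1R and SERPING1 the overlap came through Hampshire low pig 1 alone.

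The breed difference was also split by loin weight, as a description. Among low pigs the ratio of Hampshire to Pietrain mean CPM was 3.96 for C1QA, 5.91 for C1QB and 5.04 for C1QC, and among high pigs it was 4.11, 3.99 and 5.30. The chains were thus about 4 to 6 times higher in Hampshire in either stratum. For CFD the ratio was 1.51 among low pigs and 3.84 among high pigs, and for SERPING1 it was 1.63 and 3.83. In the contrast of the low pigs of both breeds, within the fit of all 13 pigs, the breed difference kept its call for C1QA, C1QB, C1QC and C1R (adjusted p between 0.0121 and 0.0217) and lost it for SERPING1 (log2 difference 0.71, adjusted p = 0.0932), where 17.9% of all genes were called. The CFD difference was 0.59 there. Whether the breed difference itself differed between strata was not tested for the members, since CFD was picked on its rise among Hampshire pigs.

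The chains of C1q were also compared within each pig. There were 1.45 to 1.80 C1QC counts per C1QA count in Hampshire pigs and 1.03 to 1.82 in Pietrain pigs. The C1QB counts per C1QA count were 0.287, 0.253 and 0.252 in Hampshire high pigs and 0.609, 0.372 and 0.443 in Hampshire low pigs, without overlap. How often the ratios of other gene pairs separate these groups was not computed, so nothing is read from this separation. In Pietrain pigs they were 0.409, 0.129, 0.219 and 0.387 with high and 0.313, 0.256 and 0.287 with low loin weight, which overlapped widely; C1QB had as few as 10 counts in a pig. C1R counts per SERPING1 count lay between 0.270 and 0.503 in all 13 pigs. These ratios mix gene length with level, so that only their differences between pigs are described.

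**Figure D3:**
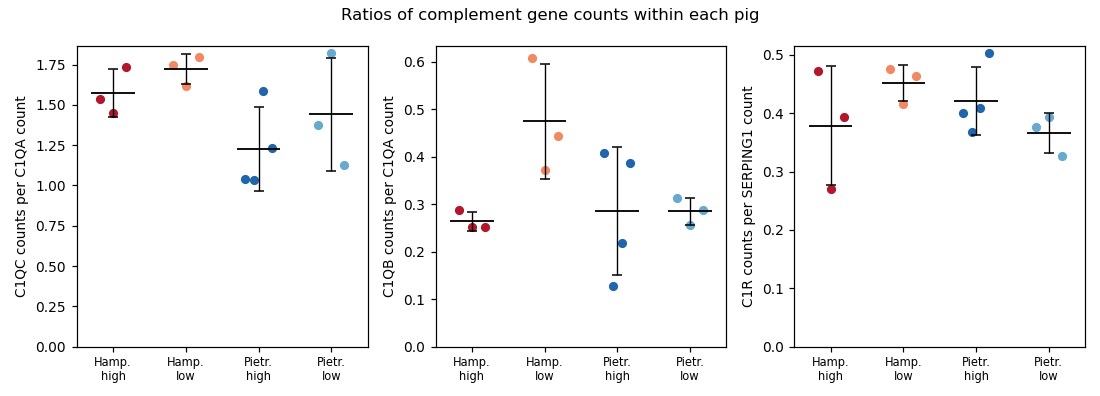
Counts of C1QC per C1QA count, C1QB per C1QA count and C1R per SERPING1 count (y axes, linear, from 0) within each pig, by group (x axis). Points are pigs, lines are group means and bars are SD. The C1QB ratio is 0.252 to 0.287 in Hampshire high pigs and 0.372 to 0.609 in Hampshire low pigs, while the Pietrain groups overlap. No share over other gene pairs was computed.

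Markers of macrophages, the main known source of C1q, were highest in the Hampshire high pigs, as the C1q chains were, but did not follow them pig by pig in Pietrain. The 11 macrophage genes found of 12 listed, C1q not among them, summed to 58.6 to 112 CPM in Hampshire high pigs, 30.1 to 48.7 in Hampshire low pigs, 13.5 to 42.1 in Pietrain high pigs and 17.1 to 19.3 in Pietrain low pigs. Hampshire low pig 1, the low animal for C1q, also had the lowest Hampshire sum. Pietrain high pig 6 had the highest Pietrain sum (42.1 CPM) with C1QA at 9.80 CPM, while pig 7, highest of the Pietrain pigs for all 3 chains, had a sum of 24.95 CPM. Of the 10 tested, 8 were higher in Hampshire than in Pietrain pigs, where 25.4% of all genes were. Among them were CSF1R, the receptor that keeps macrophages alive (log2 difference 2.41, adjusted p = 0.000212), and CD14, a co-receptor for bacterial lipopolysaccharide (2.30, adjusted p = 0.00044). With loin weight 4 of 10 rose in Hampshire pigs (12% of all genes did) and 0 of 10 in Pietrain pigs, where 9 of 10 lay above 0. The part of macrophages in the C1q result was not tested.

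Markers of fat cells gave a mixed picture beside CFD. Of 10 listed, 7 were found, and ADIPOQ, LEP and FABP4 were not among them. Their sum was 128 to 199 CPM in Hampshire high pigs, 169 to 207 in Hampshire low pigs, 44.1 to 170 in Pietrain high pigs and 67.6 to 106 in Pietrain low pigs, and so was not higher in Hampshire high pigs. The lipid droplet gene PLIN4 made up 30.5% to 79.7% of that sum and fell in Hampshire high pigs (log2 fold change −1.08, adjusted p = 0.00629). The other 6 lay above 0 with high loin weight in Hampshire pigs, and 3 of them rose, against 12% of all genes. These were the lipid droplet genes CIDEC (2.20, adjusted p = 0.0358) and CIDEA (1.54, adjusted p = 0.0247) and the hormone-sensitive lipase gene LIPE (1.82, adjusted p = 0.00727). PLIN1 (1.71, edgeR adjusted p = 0.0562), PCK1 (1.12, adjusted p = 0.37) and AGPAT2 (0.27, adjusted p = 0.369) did not pass the threshold. LIPE was at 19.4, 46.9 and 25.4 CPM in the high and 6.67, 10.8 and 8.34 CPM in the low Hampshire pigs, with pig 9 highest as for CFD. Between the breeds 4 of the 7 were higher in Hampshire, where 25.4% of all genes were. The part of fat cells in the CFD result was not tested.

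Fibroblast markers, of which 9 of 10 were found, summed to 1970 to 5070 CPM in Hampshire high pigs, 759 to 1640 in Hampshire low pigs, 859 to 2310 in Pietrain high pigs and 964 to 1610 in Pietrain low pigs. In Hampshire pigs 6 of 9 rose with high loin weight (12% of all genes did). Between the breeds 4 of 9 were higher in Hampshire than in Pietrain pigs (25.4% of all genes were). Hampshire low pig 1 again had the lowest sum and pig 9 the highest, the same animals that were lowest and highest for SERPING1 among Hampshire pigs, whereas C1R was highest in pig 10. Their part in the C1R and SERPING1 values was not tested. Of the skeletal muscle markers 2 of 6 rose with loin weight in Hampshire pigs (CKM by 0.98 and MYH7 by 1.17 on the log2 scale) and MYH1 fell by 1.25, and 2 of 6 (ACTA1 and CKM) were higher in Hampshire than in Pietrain pigs. Of the other lists, 1 of 4 endothelial, 0 of 3 lymphocyte and 0 of 3 red cell genes rose with loin weight in Hampshire pigs, and 1 of 4, 2 of 3 and 0 of 3 were higher in Hampshire than in Pietrain pigs. These lists are short, and the shares over all genes were again 12% and 25.4%.

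The profile of CFD over the 13 pigs was compared with that of 9814 genes, using the root mean square difference of log2 CPM after centring each gene. The nearest profiles were those of VPS28 (0.291), GGT5 (0.304), NOSIP (0.321), WDR34 (0.325) and NDUFS7 (0.333). Among the members C1R ranked 122 and SERPING1 124, ahead of C1QA at 994, and C3 was far away at 5477. Of the fat cell genes CIDEA ranked 67 and LIPE 814, while PLIN1 ranked 2602 and PLIN4 6156. For C1QB the nearest profiles were CERS1 (0.407), LRP3 (0.412), SLA-11 (0.416), PRKCDBP (0.418) and MAD2L2 (0.422), and its partner chains C1QC and C1QA ranked 19 and 20. These distances are a description over 13 pigs of 2 breeds, so genes that differ between the breeds in the same way lie close together, and each pig's genes come from 1 library. The profile of CFD also holds its rise in Hampshire high pigs, by which it was picked. Genes that rise in the same pigs therefore lie close to it, and nothing is read from these ranks.

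The rest of the cascade was covered by 42 further complement symbols, of which 29 were found. In the Hampshire loin weight comparison 17 could be tested. With high loin weight 4 rose (12% of all genes did) and 13 were not called. A log2 fold change above 0 was found for 16, against 51.6% of all genes. The median was 1.13, beside 0.0289 over all genes. The 4 were C2, the protease of the classical C3 convertase (log2 fold change 1.64, SE 0.47, adjusted p = 0.0344), C4A, its partner (1.69, SE 0.49, adjusted p = 0.0359), CFI, the protease that inactivates C3b and C4b (1.23, SE 0.27, adjusted p = 0.0142), and CLU, clusterin, which keeps the membrane attack complex out of membranes (1.24, SE 0.32, adjusted p = 0.0239). By role, 3 of 7 components (CFI counted with them), 1 of 4 regulators, 0 of 2 initiators and 0 of 4 receptors rose. In edgeR 11 of the 17 had an unadjusted p under 0.05, against 41.2% of all genes. CLU is in the study's list from these pigs. The count of 4 was unstable, falling to 1 without low pig 1, high pig 9 or high pig 10, to 2 without low pig 2 or 3, and rising to 7 without high pig 8.

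C2 and C4A showed the same order of groups as the C1q chains. C2 was at 4.70, 10.6 and 12.2 CPM in Hampshire high pigs, 1.23, 3.79 and 3.85 in Hampshire low pigs, 0.65, 1.26, 3.25 and 3.40 in Pietrain high pigs and 0.82, 0.95 and 1.68 in Pietrain low pigs. C4A was at 12.1, 20.2 and 34.7 CPM in Hampshire high pigs, 3.37, 5.74 and 12.1 in Hampshire low pigs, 3.18, 1.82, 6.62 and 5.70 in Pietrain high pigs and 2.46, 3.40 and 3.16 in Pietrain low pigs. The Hampshire high pigs were above every Pietrain pig for both genes. For C4A the nearest high and low Hampshire pigs were level at about 12 CPM.

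In Pietrain pigs edgeR and DESeq2 called 0 of the 17 genes tested. In edgeR 2 had an unadjusted p under 0.05, against 3.3% of all genes. A log2 fold change above 0 was found for 11, against 52.4% of all genes. The median was 0.137, beside 0.0204 over all genes. C2 had a log2 fold change of 0.93 (SE 0.60) and C4A one of 0.57 (SE 0.44), both with an adjusted p of 0.939.

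Between the breeds 11 of the 20 list genes tested were higher in Hampshire pigs, where 25.4% of all genes were, and 9 were not called, with a median of 0.93. In the contrast of low pigs only 1 list gene was called higher, where 17.9% of all genes were called in either direction. Higher were the initiators FCN2 and MASP1 of the lectin route, the components C2 (1.71, adjusted p = 0.00326), C4A (1.79, adjusted p = 0.000955) and CFP (1.59, adjusted p = 0.000582), the regulators CD59 and CLU, and the receptors or receptor partners ITGAM, ITGB2, CD93 and CALR. FCN2 passed narrowly (1.42, edgeR adjusted p = 0.0499, exact permutation p = 0.0857). It was at 16.7 CPM in Hampshire high pig 10, at 1.77 and 4.09 CPM in high pigs 8 and 9, and at up to 4.61 CPM in Pietrain pigs. CFP encodes properdin, which stabilizes the alternative convertase. It was at 3.27 to 3.84 CPM in Hampshire high and 0.92 to 2.59 CPM in Hampshire low pigs. In Pietrain pigs it was at 0.80 to 1.75 CPM with high and 0.61 to 0.74 CPM with low loin weight, so the breeds overlapped. ITGB2 and ITGAM form complement receptor 3 of phagocytes and were 1.42 and 1.00 higher on the log2 scale (adjusted p = 0.00906 and 0.017). CD59, which blocks the membrane attack complex on cells, was 0.94 higher (adjusted p = 0.00448), and CALR, a chaperone that binds C1q, was 0.48 higher (adjusted p = 0.0061).

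**Figure D4:**
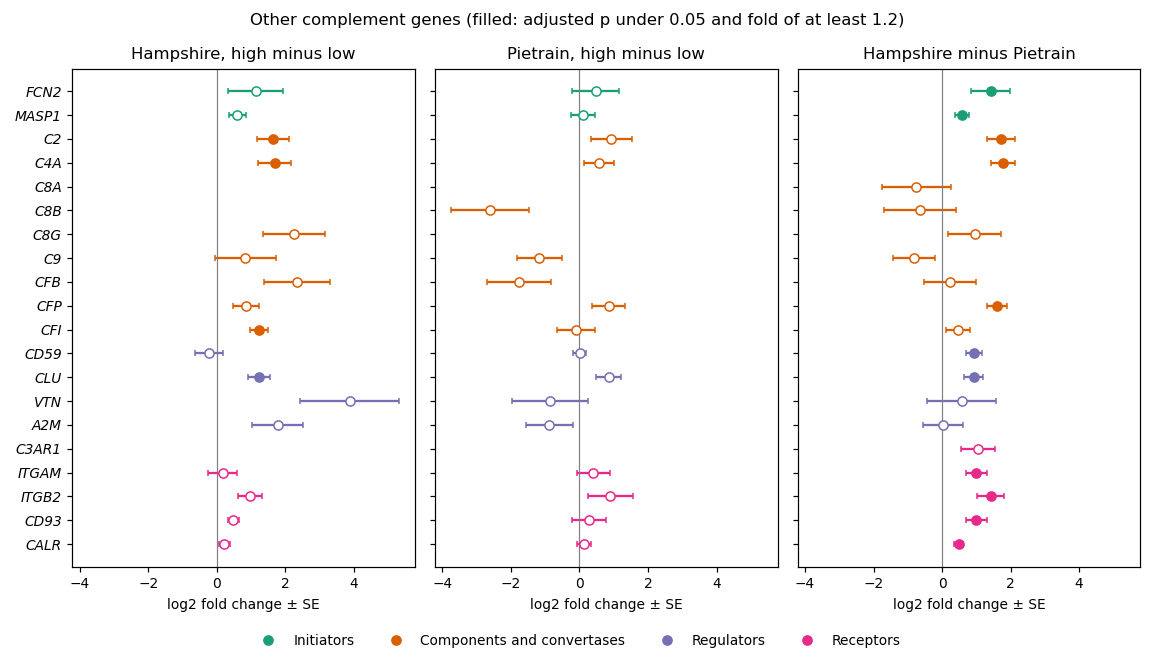
Log2 fold change with 1 SE (x axis) of the further complement genes that could be tested (y axis, coloured by role), in the same 3 comparisons. Filled points passed an adjusted p under 0.05 with a fold of at least 1.2. C2, C4A, CFI and CLU are filled in Hampshire, none in Pietrain, and 11 between the breeds, all above 0.

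Transcripts typical of liver were present in some of the muscle libraries, and liver is the main known source of plasma complement. Of 5 hepatocyte markers 4 were found (ALB, APOA1, TTR and FGB), and their sum was 443 CPM in Hampshire high pig 10 and 466 CPM in Pietrain low pig 8, against at most 152 CPM in the other 11 pigs. In pig 10 the regulator VTN was at 22.8 CPM, CFB, the substrate of factor D, at 11.4 CPM and C8A, a part of the membrane attack complex, at 2.69 CPM. In Pietrain low pig 8 CFB was at 5.71 CPM and C8B at 2.82 CPM, while VTN, at 2.15 CPM, was below Pietrain low pig 5 and Pietrain high pig 7. Of the 4 hepatocyte markers, APOA1 alone rose with loin weight in Hampshire pigs (0.99, adjusted p = 0.0387) and was higher in Hampshire than in Pietrain pigs (0.75, adjusted p = 0.0251). Over all genes those shares were 12% and 25.4%. These pigs held the highest values of C8A and C8B, whereas CFD, at 184 and 32.1 CPM, was the middle value of its group in both. C3, at 5.24 CPM, was the middle value of the Hampshire high pigs and, at 4.64 CPM, the highest of the Pietrain low pigs. With both pigs left out the Hampshire log2 fold change of CFD was 1.86 and that of C3 1.12. The Pietrain log2 fold change of C3 went from 0.53 to 1.08 (edgeR adjusted p = 0.998), and that between the breeds went to 0.41. In that setting 0 members were called in Pietrain pigs. Between the breeds C1QA, C1QB, C1QC, C1R and SERPING1 kept their call.

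**Figure D5:**
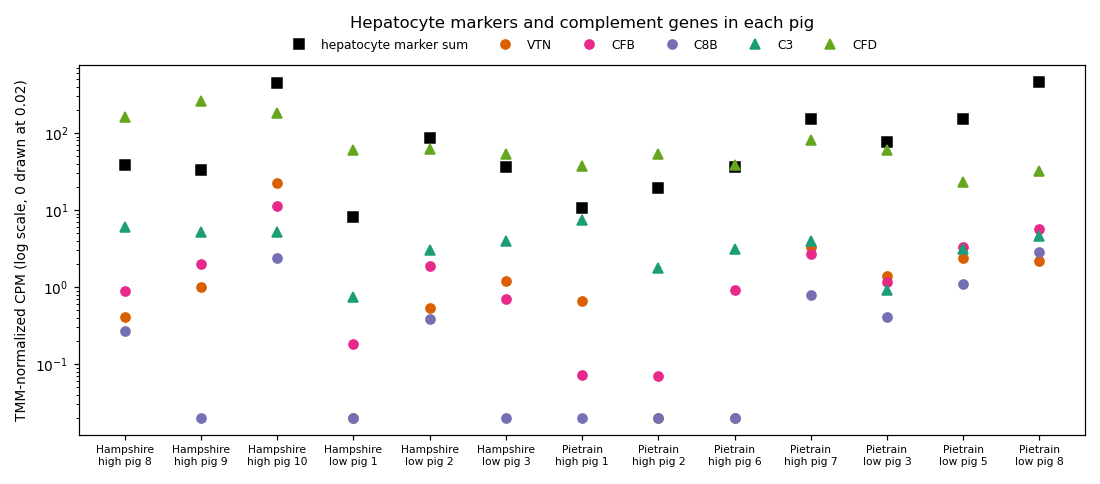
Summed level of 4 hepatocyte markers (squares), 3 further complement genes (circles) and 2 members (triangles) in each of the 13 pigs (x axis), in TMM-normalized CPM on a log scale (y axis). Values of 0 are drawn at the lower edge and may lie over one another. The marker sum peaks at 443 in Hampshire high pig 10 and 466 in Pietrain low pig 8, where C8B also peaks, while C3 and CFD do not.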

How the data were processed

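RNA from longissimus lumborum of 13 pigs was sequenced in single-end runs after preparation with a kit that does not mark strand. Unnormalized counts for each Ensembl gene were deposited by the authors, 1 table per breed. The submitters' processing notes name FastQC, STAR, RSEM, DESeq2 and the build Sscrofa10.2; DESeq2 served the authors' own tests within each breed, and the annotation release and the roles of STAR and RSEM are not given in the sources used here. The deposited tables of each breed also hold the authors' log2 fold changes and p-values, of which none were used; gene symbols and positions were taken from them and from a name table, giving symbols to 13168 of 25322 genes. A read shared by near-identical genes may have been split in counting.

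Counts were filtered with filterByExpr (minimum count 10), scaled with TMM and tested with the quasi-likelihood test of edgeR 4.0.16 in R 4.3.3, with limma 3.58.1 loaded; p-values were adjusted by Benjamini-Hochberg over all genes tested. A gene was called at an adjusted p under 0.05 and a fold of at least 1.2. Each breed was fitted alone for loin weight, and the 4 groups together for breed. Exact permutation tests used log2(CPM + 0.5), two-sided, with a smallest possible p of 0.0286 in Pietrain pigs and 0.00143 between breeds. Intervals are at 95%. Nothing in the labels gives a batch. The pigs are separate animals, so p-values measure the spread between animals.

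The members, the complement list (42 symbols, 29 found with a single match; 1 further gene is not reported here) and the marker lists (59 symbols, 49 found) were chosen with earlier results of these data known. Named are all members, list genes past the threshold or most abundant in a role, marker genes beside a result, and the 5 profiles nearest to CFD and to C1QB. The scripts were tested on simulated data. Alternatives were DESeq2 1.42.0, its size factors, no filter, a gene length offset, all pigs in 1 fit, the breed contrast at 1 loin weight and each pig left out. Gene length was the span of the whole gene, introns included, not the length of the transcript. Figures were drawn with matplotlib 3.10.9.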

Additional observations from a re-analysis of the deposited data

Results flagged for a closer look

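In groups of 4 to 10 pigs the most extreme animal was compared with the rest by Dixon's ratio of the gap to the range, which only the Pietrain high group (n = 4) allowed. C1QB stood out there with a ratio of 0.976, because pig 7 was at 6.70 CPM and the other 3 at 2.03 to 2.14 CPM. C7 stood out with a ratio of 0.969, because pig 6 was at 1.49 CPM (23 counts) and the other 3 at 0.55 to 0.58 CPM. Both ratios were above the 95% critical value for 4 animals, which chance passes in about 1 of 20 groups; 8 genes were examined.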

How the results depend on the processing

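No paired analysis was possible, because the pigs are separate animals and a pig number that occurs in both breeds does not mark a shared litter. Of 223 alternative values for single members in the Pietrain and breed comparisons, 218 kept their direction and their side of the threshold. That count includes the values of CFD between the breeds, which are a description only. C3 between the breeds changed sign to −0.17 in the contrast of low pigs, −0.0641 without Hampshire low pig 3 and −0.0606 without Pietrain low pig 3, reaching 0.412 without Pietrain low pig 8, and the cause was not tested. With CFD set aside, the members called between the breeds stayed the same with each pig left out. In the contrast of low pigs SERPING1 was lost. In Pietrain the count of members called stayed at 0 throughout.

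List genes that rose in Hampshire pigs numbered 7 with DESeq2, 2 with all 13 pigs in 1 fit, 1 with the 2 pigs richest in hepatocyte markers left out (an alternative chosen after seeing the data), and 1 to 7 with each pig left out. Between the breeds, 1 list gene was higher in the contrast of low pigs, and with each pig left out the list genes lower in Hampshire pigs numbered 0 to 1, the 1 coming without Hampshire high pig 10.

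An offset for gene length moved the Hampshire log2 fold change of CFD from 1.80 to 1.38, that of C1QA from 1.09 to 0.70, that of C1QC from 0.97 to 0.64 and that of C1QB from 0.36 to 0.02. That offset was not run between breeds. A length was known for 77.7% of the genes tested there, for 81.3% in Hampshire and for 82.6% in Pietrain. The number of genes called in Hampshire fell from 3256 to 1224 without low pig 3. C3 and C7 are limited by their counts.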
